A study of Mus musculus with 10 samples.

Results

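The data described here are the expression levels of 10 genes of the contractile apparatus whose isoforms differ between fetal and adult heart or between atrium and ventricle, namely Myh6, Myh7, Myh7b, Acta1, Actc1, Tnni1, Tnni3, Myl2, Myl4 and Myl7. They were taken as all probes whose RefSeq accession mapped to these symbols, which gave 11 of 39429 probes on the array and 10 of 20144 named genes. Ventricle RNA came from male mice given aldosterone, with a labelled duration of 7 days (5 hearts), and from untreated male mice (5 hearts), each heart from its own animal. Both groups are labelled Ctrl, and the labels used here give neither the strain and age of the animals nor the dose and route of the hormone. On each Agilent mouse array the RNA of 1 heart, in Cy5, competed with a Cy3-labelled pool of liver, brain, heart, kidney and spleen RNA, so the pool itself holds heart transcripts. Scanner files were at hand for 4 aldosterone and 5 control hearts, while the values of aldosterone replicate 4 came from the deposited value table.

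Aldosterone, a steroid hormone of the adrenal cortex, regulates salt balance through the mineralocorticoid receptor, which heart muscle cells also express. The sarcomere is built from thick filaments of myosin heavy and light chains and thin filaments of actin and troponin, and most of these proteins are encoded by several genes that are used at different stages and in different chambers. In the mouse ventricle the fetal heart relies on the slow beta myosin heavy chain (Myh7), skeletal actin (Acta1) and slow skeletal troponin I (Tnni1), and the adult heart on the fast alpha heavy chain (Myh6), cardiac actin (Actc1) and cardiac troponin I (Tnni3). A partial return of the fetal set is a widely used sign of pathological hypertrophy in rodents.

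Aldosterone hearts did not show a return of the fetal isoforms that passed a test. The dimmer probe of Myh6, the adult heavy chain, read 0.712 times the control level and Myh7 0.806 times. Without control 5, an untreated heart with high Myh7, the Myh7 difference was 0.00636 on the log2 scale. Acta1 was at or near the scanner's ceiling in all 4 aldosterone hearts with a scanner file and spread widely in controls, so its difference is not given as a fold. Of the 6 member probes with a readable difference, 2 of them saturated in part, 0 passed adjustment over all probes. Over all 26877 probes tested the called share was 0% as well. At an unadjusted p under 0.05 the count was 1 of 6 member probes, the Myh6 probe, against 6.11% of all probes (3.99% higher and 2.12% lower with aldosterone). The median difference of the 6 was -0.11 on the log2 scale, with 3 probes above 0 and 3 below, and that of all probes was 0.00362. The test throughout was limma's moderated test with Benjamini-Hochberg adjustment over all 26877 probes, and each difference is the aldosterone mean less the control mean of log2 Cy5 over Cy3. In RNA of whole tissue, fewer cells of a type and less RNA per cell cannot be told apart.

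How much of the family could be read was set by the scanner's range. Spots at or above about 65190 units in Cy5 were saturated, and they give only a lower bound on the RNA. Of the 11 member probes, 4 were saturated in Cy5 on all 9 arrays, namely those of Actc1, Tnni3 and Myl2 and the brighter of the 2 Myh6 probes, where 254 of the 26877 probes tested were. A ratio of such a spot follows the Cy3 side alone, so no difference between the groups is given for them. The Acta1 spot was saturated on 3 of 4 aldosterone and 2 of 5 control arrays, and the Myh7b spot on 1 of 4 and 3 of 5. The probes of Myh7, Myl4, Myl7 and the dimmer Myh6 probe had no saturated spot, and that of Tnni1 was close to background. The plot of Cy5 signals as scanned shows these classes.

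**Figure D1:**
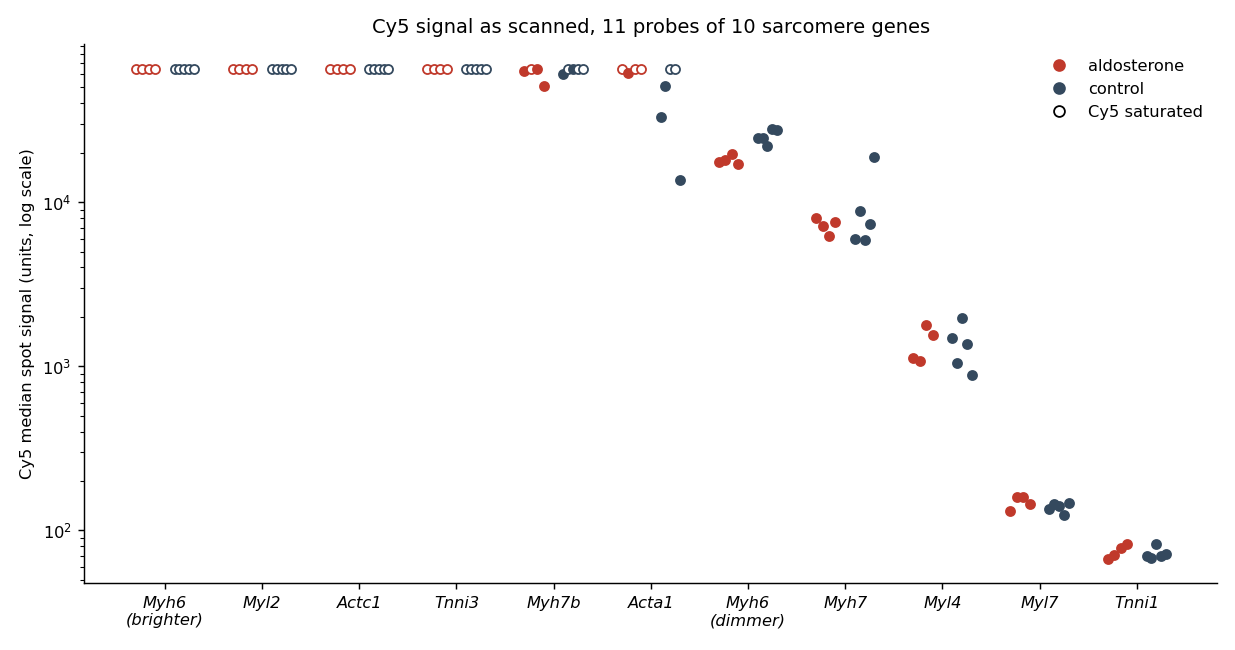
Median Cy5 spot signal as scanned (log axis, units) for the 11 probes of the 10 genes, with 4 aldosterone arrays (red, left in each pair) and 5 control arrays (blue, right); open points are saturated spots. Of all probes shown, 4 sit at the ceiling on every array, and the dimmer Myh6 probe reads 17028 to 19765 units in aldosterone hearts against 22068 to 27880 in controls; signals of different probes are not on a common scale.

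The share of probes well above the Cy5 background ran from 64.3% to 70.9% over the 9 arrays. Each of 4 slides held arrays of both groups and was scanned once, so slide and scan are 1 batch. Aldosterone arrays sat at position 2 of a slide and controls at positions 1 or 4, and an effect of position cannot be told apart from one of treatment. The hearts also stood apart in a way that crossed the groups. After the group means were subtracted, the first principal component of all probes, with 38.1% of the variance, put aldosterone 3 and 5 and controls 1, 3 and 4 on one side (scores 5.72 to 24.9) and aldosterone 1 and 2 and controls 2 and 5 on the other (scores -21.1 to -12.7). The labels give no name for this split, and it was not used to group hearts.

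Myh6 encodes the alpha myosin heavy chain, the fast ATPase that makes up most of the thick filament in the adult mouse ventricle. Its dimmer probe read 17450, 18167, 19765 and 17028 Cy5 units in aldosterone hearts 1, 2, 3 and 5, against 24649, 24658, 22068, 27880 and 27463 units in controls 1 to 5. On this scanned scale all 4 aldosterone hearts lay below all 5 controls, which held for 1 of the 6 readable member probes and 0.104% of all probes (1.01% in either direction). Signals as scanned are not normalized and were not tested. After normalization within the array the log2 ratios were 2.44, 2.12, 2.08 and 2.20 in the same aldosterone hearts, against 2.77, 2.66, 2.30, 2.82 and 2.95 in the controls. The groups then overlapped, since aldosterone 1 lay above control 3. On this scale 0 of the 6 readable member probes had groups that did not overlap, against 2.03% of all probes, or 0.655% with aldosterone lower. The mean was 2.21 ± 0.16 with aldosterone (SD, n = 4) and 2.70 ± 0.25 in controls (SD, n = 5).

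The Myh6 difference was -0.49 (SE 0.12; 95% interval -0.76 to -0.22), a change of -28.8%, with limma's adjusted p = 0.428 and unadjusted p = 0.00231, so it did not pass. It was below 0 on each slide, at -0.28, -0.18, -0.74 and -0.75 on slides 1 to 4, and -0.47 (SE 0.11) with slide as a block. In the value table of all 10 hearts the Myh6 ratios were 2.73, 2.28, 2.16, 2.74 and 2.29 in aldosterone hearts 1 to 5, against 2.95, 2.82, 2.43, 3.01 and 3.11 in controls. Aldosterone 4, which has no scanner file here, was the highest of its group and lay above control 3. The table's difference was -0.42 (SE 0.16; limma adjusted p = 0.538, unadjusted p = 0.0240), where 0.13% of all probes passed adjustment and 7.98% had an unadjusted p under 0.05 (4.59% higher and 3.39% lower). Groups in the table did not overlap for 1.91% of probes, 0.64% with aldosterone lower, and they overlapped for Myh6. The brighter Myh6 probe, annotated to the same transcript, was at the ceiling on all 9 arrays and gives no difference to set beside it.

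Myh7 encodes the slow beta heavy chain, which predominates in the fetal mouse ventricle and in slow skeletal muscle. Its spot read 8045, 7144, 6225 and 7598 Cy5 units in aldosterone hearts 1, 2, 3 and 5, against 5942, 8870, 5838, 7372 and 18897 units in controls 1 to 5. The groups overlapped throughout, and the highest value by far belonged to an untreated heart, control 5. The log2 ratio was -3.58 ± 0.37 with aldosterone (SD, n = 4) and -3.27 ± 0.77 in controls (SD, n = 5), so that each ventricle's normalized signal lay below that of the pool on this probe. The Myh7 difference was -0.31 (SE 0.34; 95% interval -1.07 to 0.44; limma adjusted p = 0.999). Without control 5 it was 0.00636 (SE 0.20), and within slides 1 to 4 it was 0.28, 0.34, -0.59 and -1.45. In the value table of 10 hearts, Myh7 differed by -0.38 (SE 0.36; limma adjusted p = 0.862).

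Myh6 and Myh7 lie side by side on chromosome 14, and Acta1 lies on chromosome 8. The RefSeq promoter windows of these genes are shown (GRCm38.p6, written 5′ to 3′ on the gene's strand). Each runs from 250 bases before to 50 after the listed start. Of the fetal and adult ventricular genes introduced above, these 3 had a readable difference, that of Acta1 resting in part on saturated spots. For Myh7, with 2 listed windows, the outermost is given. Capitals mark 3 kinds of letters, searched on both strands: the MCAT core CATTCC that TEAD factors bind, the CArG box that serum response factor binds, and TATAAA. None of the matches overlap.
Myh6, chr14:54966558-54966857, minus strand: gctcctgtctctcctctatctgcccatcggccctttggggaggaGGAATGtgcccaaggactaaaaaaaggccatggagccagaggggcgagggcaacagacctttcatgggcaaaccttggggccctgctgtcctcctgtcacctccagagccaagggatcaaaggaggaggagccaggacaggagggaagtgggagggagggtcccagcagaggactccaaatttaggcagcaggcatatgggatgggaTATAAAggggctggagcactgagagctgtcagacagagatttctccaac
Myh7, chr14:54994577-54994876, minus strand: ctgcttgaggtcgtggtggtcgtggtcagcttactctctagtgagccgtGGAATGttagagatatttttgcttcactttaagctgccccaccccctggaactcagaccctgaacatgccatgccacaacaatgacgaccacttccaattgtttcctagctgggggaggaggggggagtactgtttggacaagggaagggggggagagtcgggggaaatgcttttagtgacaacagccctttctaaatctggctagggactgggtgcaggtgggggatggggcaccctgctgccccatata
Acta1, chr8:123894726-123895025, minus strand: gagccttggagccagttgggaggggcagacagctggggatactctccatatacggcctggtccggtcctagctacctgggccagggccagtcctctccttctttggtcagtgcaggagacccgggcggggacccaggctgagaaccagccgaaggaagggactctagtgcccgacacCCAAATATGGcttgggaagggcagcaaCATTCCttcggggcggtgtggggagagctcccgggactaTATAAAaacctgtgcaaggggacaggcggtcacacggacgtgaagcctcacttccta
The MCAT core stood once in each of these 3 windows and in 14.7% of all 32851 promoter windows of the same length. A CArG box stood in that of Acta1 and in 1.63% of all windows, and TATAAA in those of Myh6 and Acta1 and in 13.6%. Over the 10 genes, 4 windows held the MCAT core, 3 a CArG box and 3 TATAAA. A match is a description of letters only.

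The ratio of Myh7 to Myh6 in each heart is the usual summary of the myosin switch. As a log2 difference of the 2 probes it was -5.60, -5.80, -6.11 and -5.65 in aldosterone hearts 1, 2, 3 and 5, against -6.43, -5.88, -6.32, -6.26 and -4.94 in controls 1 to 5. Aldosterone hearts lay inside the range of the controls, which was set by control 5 at the top. The mean was -5.79 ± 0.23 with aldosterone (SD, n = 4) and -5.97 ± 0.61 in controls (SD, n = 5). The difference was 0.18, and an exact two-sided permutation test over all splits of the arrays gave p = 0.627, where the smallest p the design allows is 0.00794. Without control 5 it was 0.43 (exact permutation p = 0.0571), with aldosterone 3 still below control 2. With that heart left out there are fewer splits, so the smallest p allowed is larger than 0.00794. In the value table of 10 hearts the difference was 0.05 (exact permutation p = 0.889, n = 5 per group). Of 5 isoform pairs planned, this was the 1 that could be read, as the adult or ventricular partner of the others (Actc1, Tnni3, Myl2 and Myl3) was saturated on every array, so no adjustment over pairs was made.

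**Figure D2:**
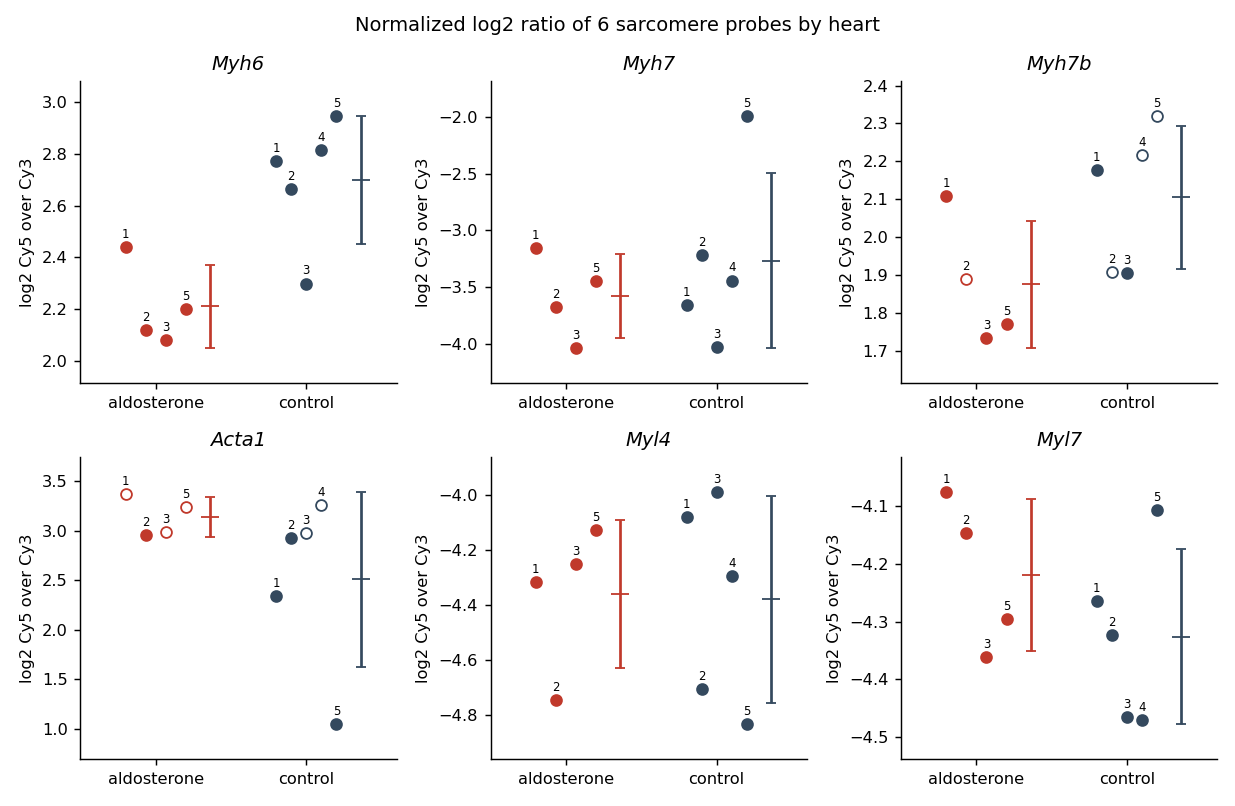
Normalized log2 ratio of Cy5 over Cy3 for the 6 member probes with a readable difference, for 4 aldosterone hearts (red, left) and 5 control hearts (blue, right), with the replicate number above each point, the mean and SD beside the points, and open points for saturated Cy5 spots. Myh6 lies lower in aldosterone hearts with 1 control among them, and control 5 holds the highest Myh7 and the lowest Acta1.

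Myh7b encodes a slow-type myosin heavy chain related to Myh7. Its log2 ratio was 2.11, 1.89, 1.73 and 1.77 in aldosterone hearts 1, 2, 3 and 5, against 2.18, 1.91, 1.91, 2.22 and 2.32 in controls 1 to 5. Values overlapped, with aldosterone 1 among the middle of the controls. The difference was -0.23 (SE 0.11; 95% interval -0.47 to 0.01; limma adjusted p = 0.83), and -0.25 (SE 0.11; limma adjusted p = 0.613, unadjusted p = 0.0456) in the value table of 10 hearts. As its spot was saturated on 3 control arrays and 1 aldosterone array, the control side is a lower bound more often than the aldosterone side. The unsaturated spots read 63202, 64459 and 51134 Cy5 units in aldosterone 1, 3 and 5, and 60639 and 65085 in controls 1 and 3. All but that of aldosterone 5 were thus near the ceiling, where a ratio largely follows the Cy3 side. In the Cy5 channel alone (quantile-normalized) the Myh7b difference was -0.12 (SE 0.07). The probe's letters were not used here, so how far myosin transcripts of other genes bind to it was not tested.

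Acta1 encodes skeletal alpha-actin, the actin of skeletal muscle and a major actin of the fetal rodent heart. Its spot read 61193 Cy5 units in aldosterone 2 and was saturated in aldosterone 1, 3 and 5, against 32828 units in control 1, 51287 in control 2 and 13653 in control 5, with controls 3 and 4 saturated. Every aldosterone heart with a scanner file was thus at or near the ceiling, while the controls spread from well below it to the ceiling itself. The log2 ratio was 3.14 ± 0.20 with aldosterone (SD, n = 4) and 2.51 ± 0.89 in controls (SD, n = 5). With saturated spots at their ceiling values, the Acta1 difference was 0.63 (SE 0.37; 95% interval -0.18 to 1.44; limma adjusted p = 0.923) and 0.26 (SE 0.18) without control 5. As ceiling values enter both sides, it bounds the change in neither direction. Unsaturated spots numbered 1 of 4 with aldosterone and 3 of 5 in controls. On slides 1 and 4, where the aldosterone spot alone was saturated, the readings put aldosterone above control by at least 0.74 and 2.20. On slide 2 the control spot alone was saturated, and the readings put the difference there at -0.02 or lower. On slide 3 both spots were saturated, so no size is given for that slide. In the value table of 10 hearts Acta1 differed by 0.59 (SE 0.38; limma adjusted p = 0.767). Aldosterone 4 was the lowest of its group there at 3.09, below controls 3 and 4 at 3.26 and 3.54. Whether its spot was saturated is not known here.

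Control 5 stood at opposite ends for these genes, with the highest Myh7 log2 ratio of the 9 hearts (-1.99) and the lowest Acta1 (1.05). The next highest Myh7 value was -3.16, in aldosterone 1, and the next lowest Acta1 value 2.34, in control 1. Both are genes of the fetal set, and in this untreated heart they did not go together. The plot of Acta1 against Myh7 shows this heart by itself in the lower right corner.

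**Figure D3:**
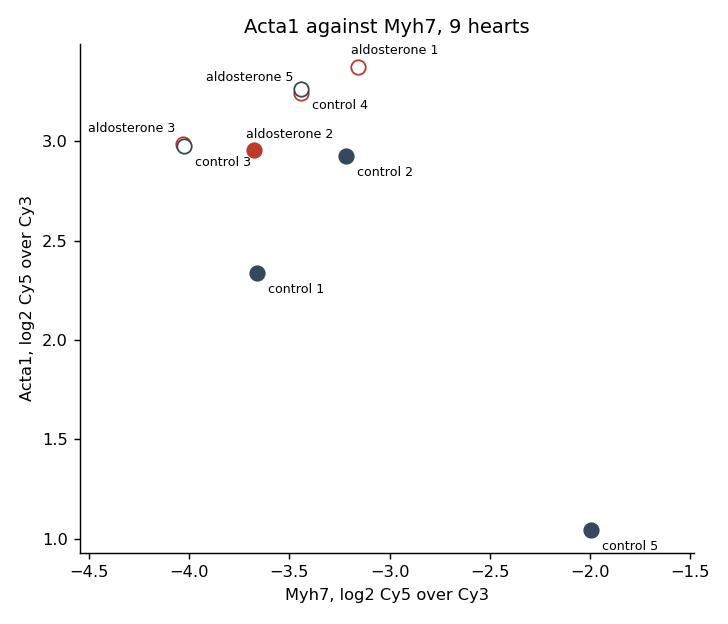
Normalized log2 ratio of Acta1 (vertical axis) against that of Myh7 (horizontal axis) in 4 aldosterone hearts (red) and 5 control hearts (blue); open points are hearts with a saturated Acta1 spot. Control 5 lies at -1.99 for Myh7 and 1.05 for Acta1, apart from the other 8 hearts.

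Actc1 encodes cardiac alpha-actin, the main actin of the adult heart, and Tnni3 cardiac troponin I, the inhibitory troponin subunit that carries the phosphorylation sites for adrenergic control. Both were saturated in all 9 hearts, so the actin and troponin pairs have no readable adult side. Tnni1, the slow skeletal troponin I that precedes Tnni3 in development, lay at the other end. Its spot read 67, 71, 78 and 83 Cy5 units in aldosterone hearts 1, 2, 3 and 5, against 70, 68, 82, 70 and 71.5 units in controls 1 to 5, over local backgrounds of 57 to 59 units at the array median. It was well above background on 2 of 4 aldosterone arrays and 1 of 5 control arrays, under the minimum of 4 arrays, and was not tested.

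The myosin light chains mark chambers. Myl2 is the regulatory light chain of the ventricle and was saturated in all 9 hearts, while Myl7 and Myl4, the regulatory and essential light chains of the atrium, were readable. Myl7 read 131, 160, 159 and 144.5 Cy5 units in aldosterone hearts 1, 2, 3 and 5, against 134, 145, 140, 124 and 147 units in controls 1 to 5. These values overlapped and were within a few times the local background. The log2 ratio of Myl7 was -4.22 ± 0.13 with aldosterone (SD, n = 4) and -4.33 ± 0.15 in controls (SD, n = 5), a difference of 0.11 (SE 0.09; 95% interval -0.09 to 0.30; limma adjusted p = 0.987). With local backgrounds as deposited it was -0.14 (SE 0.32), so its direction is not settled.

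Myl4 is also expressed in the fetal ventricle. It read 1119, 1078, 1793 and 1543 Cy5 units in aldosterone hearts 1, 2, 3 and 5, against 1482, 1049, 1957, 1361 and 890 units in controls 1 to 5. The log2 ratio was -4.36 ± 0.27 with aldosterone (SD, n = 4) and -4.38 ± 0.38 in controls (SD, n = 5), a difference of 0.02 (SE 0.19; 95% interval -0.39 to 0.43; limma adjusted p = 0.999) whose sign turned in 6 of 20 alternatives. In Cy5 units the 5 highest hearts were aldosterone 3 and 5 and controls 1, 3 and 4, the same 5 that lay on one side of the first principal component. That component was computed on all probes, Myl4 among them, and the match was seen after the fact. Within slides 1 to 4 the Myl4 difference was 0.08, -0.76, 0.04 and 0.71, and on slides 2 and 4 the hearts of the 2 groups lay on opposite sides of the component. A link between the component and Myl4 was not tested. In the value table, aldosterone 4 had the lowest Myl4 of the 10 hearts at -5.01, and the difference was -0.11 (SE 0.21).

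**Figure D4:**
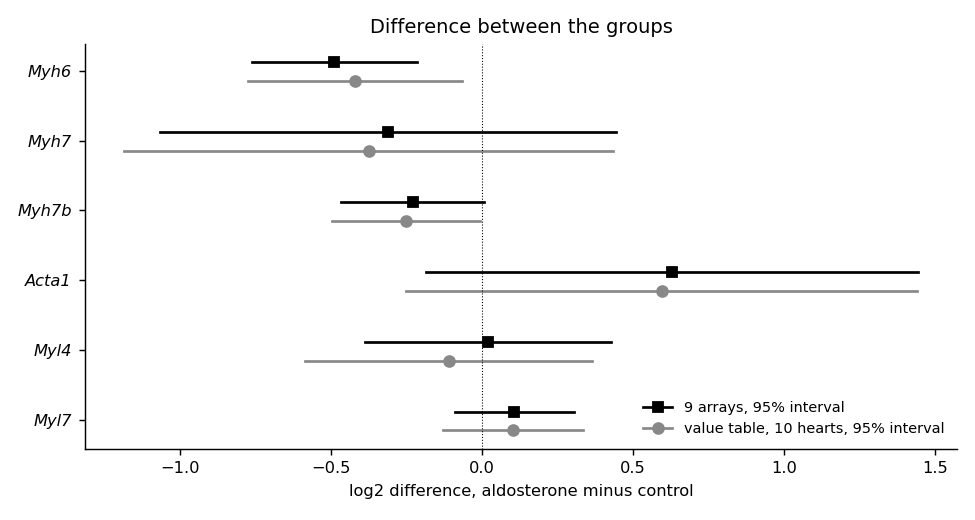
Log2 difference, aldosterone minus control, of the 6 member probes with a readable difference, as points with 95% intervals, from 9 arrays (black squares) and from the value table of 10 hearts (grey circles). The interval of Myh6 lies below 0 in both sources, and that of Myh7b in the table alone. Acta1 and Myh7b rest in part on saturated spots, and none of the 6 passed adjustment over all probes.

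Of 39 other sarcomere genes, 29 had a readable difference and 0 passed adjustment, with a median of 0.02. At an unadjusted p under 0.05 there were 3 higher and 1 lower, or 13.8% of the 29, where the share over all probes was 6.11%. The genes of smallest p were Tpm4, a tropomyosin of non-muscle cells and early myofibrils (0.43, SE 0.08; limma adjusted p = 0.187), Myom1, a crosslinker of the M-band (0.29, SE 0.06; 0.285), and Myh8, the perinatal skeletal heavy chain (-0.46, SE 0.14; 0.540). Of 18 regulators of the isoform genes, all measured, 0 passed adjustment, and the median was -0.00183. At an unadjusted p under 0.05, 2 were higher and 0 lower, or 11.1%, against 3.99% higher and 2.12% lower over all probes. Tead1, a factor that binds the MCAT element, differed by 0.23 (SE 0.08), Dio2, which activates thyroid hormone, by 0.20 (SE 0.09), and Srf, the factor of the CArG box, by 0.10 (SE 0.07). The thyroid hormone receptor gene Thra differed by -0.00108 (SE 0.10) and Thrb by -0.10 (SE 0.11).

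Some genes tracked the members from heart to heart. Likeness was taken as Pearson's r of log2 ratios after subtraction of the group means over the 9 arrays, among all named genes, and the points share arrays and reference pool. Among the 5 most alike for Myh7 were Kif19a (0.97), Jag1 (0.97), Slc2a3 (0.97) and Serp2 (0.96). For Myl7 the 5 were Sec63 (0.98), Tusc1 (0.97), Gins3 (0.97), Kri1 (0.96) and Ccdc59 (0.96). Values this high are the top of a very long list of genes over few hearts and are given as a description. For Myh7 the single heart control 5 lies far from the others. None are named for Acta1, whose spot was saturated on 5 of the 9 arrays.

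Markers of other cell types bear on how these values can be read. The 7 atrial markers outside the members were well above background in each of the 9 hearts, and their mean log2 ratio ran from -1.26 to -1.03 with aldosterone and from -1.51 to -1.12 in controls. Their summed Cy5 signal, 57720 to 67089 units with aldosterone and 25086 to 66767 units in controls, was almost all Nppa, the natriuretic peptide of the atrium and of the fetal ventricle. The Nppa spot was at the ceiling in aldosterone 1, 2 and 3 and in control 2, so its difference (0.84, SE 0.31; limma adjusted p = 0.713) rests on ceiling values. Without Nppa the other 6 summed to 1424 to 1883 units with aldosterone and 1205 to 1560 units in controls. Dkk3 differed by 0.30 (SE 0.14). Of the 7 atrial markers, these 2, Nppa and Dkk3, were higher at an unadjusted p under 0.05, and 0 passed adjustment. Kcna5 differed by 0.12, Sln by 0.03, Kcnj3 by -0.07, Mybphl by -0.08 and Bmp10 by -0.15. Of 5 ventricular markers, 3 were readable, as Myl2 and Myl3 were saturated. Their median difference was 0.07, with 2 above 0 and 1 below. At an unadjusted p under 0.05, 1 was higher, and 0 passed adjustment. Of 13 skeletal muscle markers, 8 were measured, with summed signals of 27364 to 37898 units in aldosterone hearts against 28380 to 41274 units in controls. Tnnt3 read only 71.5 to 87 units over the 9 hearts, Tnnc2 185 to 275 and Tnni2 175.5 to 439, so other genes of the list make up most of these sums. Myl1 differed by 0.76 (SE 0.48), and by 0.23 without aldosterone 1, its highest heart. Tnni2 differed by 0.17, and by 0.02 without that heart, while Tnnt3, Tnnc2, Mybpc2, Pvalb, Atp2a1 and Ckm ran from -0.13 to 0.02. Myh1, Myh2, Myh4, Actn3 and Mylpf, which define fast skeletal fibres, were well above background on 0 arrays. All 6 fibroblast markers had differences above 0 (median 0.38), 4 of them with an unadjusted p under 0.05 and 0 after adjustment, where 3.99% of all probes were higher at that threshold. Their summed signals were 70867 to 92708 units with aldosterone and 50455 to 76466 units in controls.

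Blood, fat and immune cell markers also differed in level. Of 3 measured red blood cell markers, Hba-a1 was saturated in a whole group. The other 2, Hbb-b2 (1.06, SE 0.28) and Alas2 (0.83, SE 0.21), both had an unadjusted p under 0.05, where 3.99% of all probes were higher at that threshold. The Hbb-b2 spot was saturated on 1 array. The mean log2 ratio of these 2 genes ran from -1.62 to -1.04 with aldosterone and from -3.25 to -1.90 in controls, without overlap, and summed signals were 46449 to 67854 units against 15558 to 41886 units. Over all probes, taken singly, groups did not overlap for 2.03% by log2 ratio and 1.01% as scanned. Each of 4 adipocyte markers had a difference below 0 (median -0.16), led by Cfd at -0.99 (SE 0.29, unadjusted p under 0.05), with summed signals of 302 to 501 units with aldosterone and 421 to 754.5 units in controls. The others lay near background: Plin1 (-0.08, SE 0.08), Adipoq (-0.09, SE 0.09) and Cidec (-0.23, SE 0.14) were well above it on 4, 5 and 7 of the 9 arrays. Their shared sign therefore adds little to Cfd. Each of 4 macrophage markers had a difference above 0 (median 0.17), 1 of them, Adgre1 (0.42, SE 0.19), with an unadjusted p under 0.05. Endothelial and smooth muscle markers had medians of -0.04 and -0.01, with 0 such probes. None of these passed limma's adjustment, and these genes were named after their values were seen. The part of these cell types in the member values was not tested. Of 8 cardiomyocyte markers, 5 were readable, with a median difference of 0.03 and summed signals of 90010 to 129960 units with aldosterone against 82155 to 114400 units in controls. Of these 5 differences, 4 were above 0 and none passed adjustment.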

How the data were processed

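Ventricle RNA of aldosterone-treated and untreated mice was compared on 2-colour arrays, with Cy5 for the heart and Cy3 for a common reference. The authors' deposited scanner files, written, per the file headers, by version 10.7.3.1 of Agilent Feature Extraction, hold spot intensity values and a log10 ratio of Cy5 over Cy3 for 9 arrays. The authors' deposited value table holds log2 ratios for 10 hearts. For the 9 arrays it matched the scanner's ratio (Pearson r 0.996 to 1.00 over 39429 probes, slope 1.00, 82.7% to 86.6% of probes within 0.001), so scale and direction are known. Its column medians were 0.04, 0.08, 0.11, -0.01 and 0.04 for aldosterone 1 to 5 and 0.05, 0.06, 0.12, 0.02 and 0.02 for controls 1 to 5, and the sources used here do not say whether columns were centred.

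Median signals were background-corrected (normexp, offset 50), with local backgrounds over 20 units from the array's median replaced by that median, since control 1 held stray values up to 11739.5 units. Loess within the array, which gave control spots weight 0, followed in limma 3.58.1 under R 4.3.3. Control and outlier spots were left out. Probes well above background in Cy5 on at least 4 arrays were kept, 26877 of 39429. The fit was checked on simulated data. Symbols came from RefSeq records (GRCm38.p6). A gene is given by its probe with the fewest saturated spots. The genes and lists were chosen with earlier results of these data known. Named genes were all members, Myl3, the 3 genes of smallest p among sarcomere genes and among regulators, the atrial and skeletal muscle markers, any list gene that passed, and the 5 genes most like each of Myh7 and Myl7, of which 1 is not reported here (the rule held Acta1 too, left out for saturation). Thra and Thrb were named after their values were seen. With 9 arrays, their number limits the precision. Alternatives covered background, normalization, data source, channel, saturation, filter, blocks and left-out hearts. Leaving hearts out for list genes, and Nppa out of the atrial sum, was chosen after seeing the data.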

Additional observations from a re-analysis of the deposited data

How the results depend on the processing

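The adjusted call count over all probes was 0 and moved to 35 with the value table of 10 hearts, 15 with the scanner's own log ratio, 2 with a replicate block, and between 0 and 12 when 1 heart was left out. Among the member probes it was 0 under each alternative run. Replicate numbers are shared by the labels, which name no pairing. Same-numbered hearts deviated with correlations of 0.06, 0.34, 0.34 and -0.32, and unlike-numbered hearts with correlations of -0.46 to 0.47. The hearts numbered 1 shared a slide, as did those numbered 5. These correlations do not settle whether same-numbered hearts were paired. With the replicate block Myh6 was -0.46, Myh7 -0.36, Myh7b -0.20, Acta1 0.82, Myl4 0.04, Myl7 0.07 and the Myh7 to Myh6 difference 0.11. The Myh6 difference kept its direction in 21 of 21 alternatives (limma adjusted p 0.0914 to 1.00), from -0.59 to -0.42 apart from -0.31 with a mean that takes in the saturated Myh6 probe. Directions held for Myh7b and Acta1, both saturated in part, in 20 of 20, Myh7 and Myl7 in 19 of 20 and Myl4 in 14 of 20. The Myh7 to Myh6 difference stayed above 0 in 21 of 21, from 0.00266 to 0.43 (exact permutation p 0.0571 to 0.992). Leaving out 1 heart gave -0.50 to 0.00636 for Myh7, 0.26 to 0.82 for Acta1, -0.094 to 0.15 for Myl4 and 0.06 to 0.16 for Myl7. Myl4 was -0.11 with the value table and -0.040 with stray local backgrounds kept as deposited, where Myl7 was -0.14; the cause was not tested. Choosing the brightest probe gave no value for Myh6, as that probe is saturated. Saturation, and a Tnni1 spot near background, limit what these arrays show of the switch.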
